A study of Canis lupus familiaris with 22 samples.

Results

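Interferon-stimulated genes are the genes that cells switch on when they sense an interferon. A list of 42 such genes, covering antiviral effectors, sensors of foreign nucleic acid, transcription factors and other induced genes, was followed in the blood of dogs. Members were taken by gene name on the array: 33 of the 42 had a probe of that name, and 46 of their 47 probes, at least 1 for each of the 33, gave a Cy5 signal well above background on 7 or more arrays. These 33 genes were fitted together with all other measured genes, 29937 gene names in total.

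The study compared blood from 8 healthy adult dogs of various breeds (ctrl) with blood from 7 cAD patients, adult privately owned dogs with canine atopic dermatitis, an itching allergic skin disease. Each patient gave 1 sample ahead of ASIT (0), when clinical signs were visible, and 1 at 6 months of treatment (6 months). ASIT is allergen-specific immunotherapy, here injected under the skin with extracts chosen from each dog's skin test. All 22 samples were venous whole blood, which holds neutrophils, lymphocytes, monocytes, eosinophils, platelets and red cell precursors in proportions that differ between dogs. Each sample was labelled with Cy5 and hybridised against 1 common reference, Cy3-labelled RNA pooled from 13 other healthy dogs, so every value below is a log2 ratio of the dog over this pool. No dyes were swapped, and the design holds no cAD patients left without ASIT. The 8 ctrl arrays lay on 2 slides and 1 scan day of their own. Disease, slide and scan day therefore cannot be told apart in any comparison with ctrl. The 2 arrays of cAD dogs 1, 2 and 3 shared a slide. Those of dogs 4 to 7 lay on different slides and scan days at 0 and at 6 months. In these dogs time, slide and scan day cannot be told apart.

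Type I interferons bind a receptor on nearly every nucleated cell, and the signal runs through JAK kinases to transcription factors, STAT2 and IRF9 among them, which enter the nucleus and turn on a large set of genes. Their products cut viral RNA (the OAS family with RNase L), bind it (the IFIT family), trap viral particles (MX1, BST2) or raise the number of sensors (DDX58, which encodes RIG-I, and IFIH1, which encodes MDA5). In blood the genes usually rise together in viral infection, which makes them a common readout of interferon exposure.

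The probes are 60-base oligonucleotides. Those of MX1, CMPK2, DDX58 and IFIH1 are shown because these genes carried the largest or most typical values below, and those of IRF1 and IFIT3 because they did not follow. All coordinates are those the scanner files give on canFam3.1, and each sequence is printed 5′ to 3′ as the files hold it.
MX1: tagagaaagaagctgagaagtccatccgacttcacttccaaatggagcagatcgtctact
CMPK2: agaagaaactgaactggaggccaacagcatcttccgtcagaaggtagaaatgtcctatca
DDX58: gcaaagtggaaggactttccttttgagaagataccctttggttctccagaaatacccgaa
IFIH1: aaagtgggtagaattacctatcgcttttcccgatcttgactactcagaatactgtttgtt
IRF1: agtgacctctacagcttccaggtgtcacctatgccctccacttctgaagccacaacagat
IFIT3: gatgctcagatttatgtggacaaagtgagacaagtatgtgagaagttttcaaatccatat
The MX1 probe, well above background on 5 of 7 arrays of each cAD group, lies at chr31:35926713-35926772 and the DDX58 probe at chr11:49764597-49764656. The CMPK2 probe spans chr17:4468301-4469938, a stretch longer than the oligonucleotide. The IFIH1 probe lies at chr36:7671627-7671686 and the IFIT3 probe at chr4:104258-104317, while the IRF1 probe spans chr11:20776197-20776710.

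Members share sequence with each other only in part. Of all pairs of probes to different members, those of the neighbouring paralogs HERC6 and HERC5 shared the longest run, 13 bases, printed here in capitals.
HERC6: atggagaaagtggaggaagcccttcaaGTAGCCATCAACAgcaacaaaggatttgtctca
HERC5: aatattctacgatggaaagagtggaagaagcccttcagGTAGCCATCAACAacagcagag
Probes of the same gene overlapped more. The 2 OAS2 probes shared 24 bases, again in capitals, and read almost the same value in ctrl dog 7, at 3.06 and 2.91.
OAS2: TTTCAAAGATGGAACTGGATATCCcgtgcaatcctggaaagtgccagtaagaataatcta
OAS2: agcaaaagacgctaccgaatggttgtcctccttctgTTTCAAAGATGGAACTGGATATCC
Of the 3 CXCL10 probes 2 shared 54 bases, and the other has coordinates on the opposite strand. The OAS3 probes shared 42 bases and the IRF9 probes 17 bases. Overlapping probes are not independent readings of their gene.

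The main feature of the 33 genes was a single ctrl dog. Averaged over the 33 genes, ctrl dog 7 lay at 1.43 on the log2 ratio scale, while the other 7 ctrl dogs lay between -0.28 and -0.01. The cAD patients lay between -0.44 and 0.01 before ASIT and between -0.45 and -0.06 after 6 months of ASIT. All 33 genes were above 0 in ctrl dog 7, against 8 to 18 of the 33 in each of the other ctrl dogs. Without ctrl dog 7 the ranges of the 3 groups overlapped, with means of -0.13 ± 0.12 (SD, n = 7) in ctrl, -0.23 ± 0.18 (SD, n = 7) at 0 and -0.26 ± 0.18 (SD, n = 7) at 6 months.

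**Figure D1:**
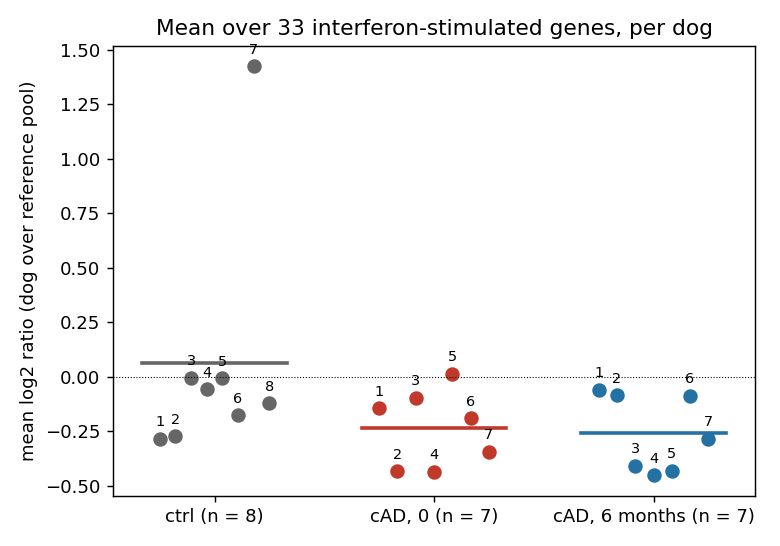
Mean log2 ratio over the 33 interferon-stimulated genes (y axis, dog over reference pool) for each dog, by group (x axis). Points are dogs with their numbers, and lines are group means. Ctrl dog 7 sits at 1.43, and the other 21 arrays between -0.45 and 0.01.

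Gene by gene, ctrl dog 7 was the highest of the 8 ctrl dogs in 29 of the 33 genes, where it was the highest in 8.69% of all measured genes. It was above all other 21 arrays in 23 of the 33 genes, against 1.43% of all measured genes. It exceeded them by more than 1 log2 unit in 12 of the 33, against 0.0803% of all measured genes. Among cAD patients the array with most members at the top of its group was dog 5 at 0, with 15 of the 33. The share over all genes was 17.3%. That array also had 6 of the 33 at the bottom, against 18.2% of all genes.

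The high values were in the Cy5 channel, which carries the dog's own RNA. The mean quantile-normalized log2 Cy5 signal over the 33 genes was 9.98 in ctrl dog 7 and 7.80 to 8.19 in the other ctrl dogs. The Cy3 signal of the pool on the same array was 8.32, against 8.16 to 8.29 on the other ctrl arrays. The 3 ctrl arrays on the same slide gave means over the 33 genes of -0.01, -0.18 and -0.12. The Cy5 signal was well above background at 86.6% of all probes on the array of ctrl dog 7, and at 83.7% to 92.3% over the 8 ctrl arrays. The authors' own value table gave the same picture, with a mean of 1.48 in ctrl dog 7. In whole blood, a higher level per cell and more cells of a type that expresses a gene cannot be told apart.

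**Figure D2:**
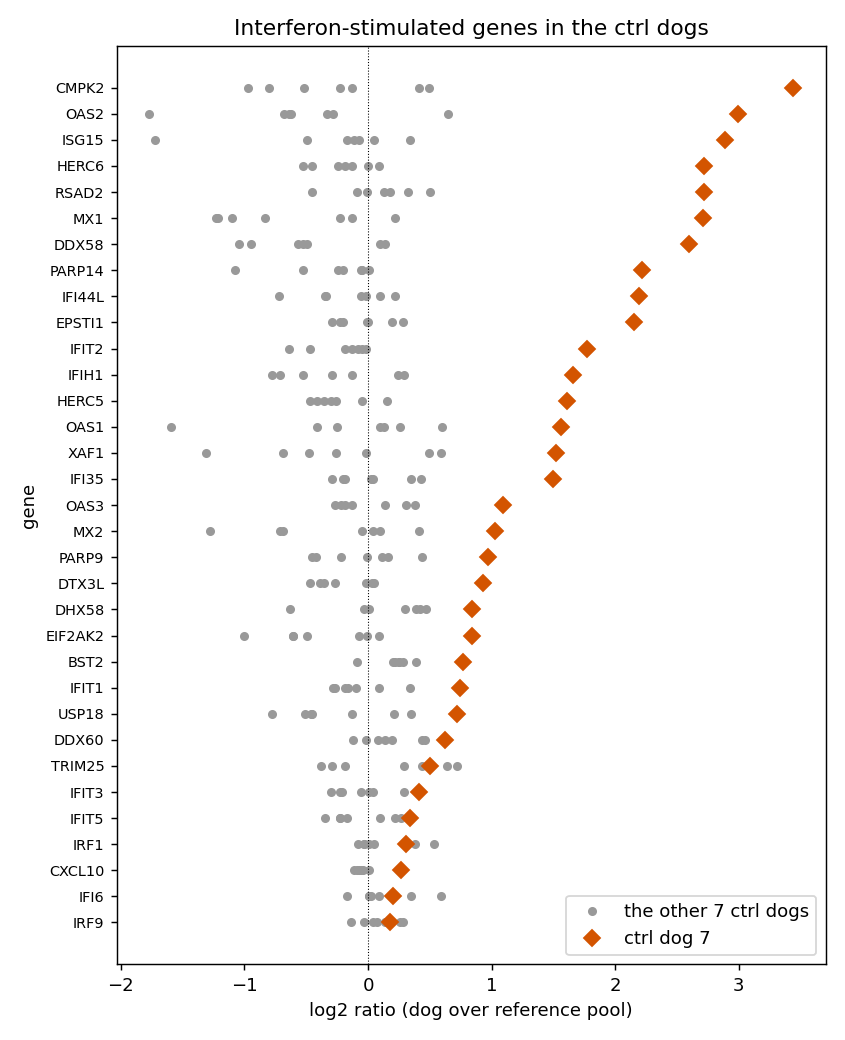
Log2 ratio (x axis, dog over reference pool) of each of the 33 interferon-stimulated genes (y axis) in the 8 ctrl dogs. Diamonds are ctrl dog 7 and circles the other 7 ctrl dogs. The distance between them was widest for CMPK2 (3.44 against a mean of -0.25) and nearly absent for IFI6 and IRF9.

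Among the effectors, 18 of 21 listed members were measured, and ctrl dog 7 was the highest of all 22 arrays in 13 of them. CMPK2, a mitochondrial nucleotide kinase that lies next to RSAD2, stood at 3.44 in ctrl dog 7 and between -0.97 and 0.49 in the other ctrl dogs, 12.9-fold above their mean. OAS2, an enzyme that makes the 2-5A messenger for RNase L, stood at 2.99 and between -1.77 and 0.65, 11.4-fold above. MX1, a GTPase that traps viral nucleocapsids, stood at 2.71 in ctrl dog 7, 10.2-fold above the mean of the others. The other ctrl dogs read -1.23, -1.10, -0.13, -0.23, 0.22, -0.83 and -1.21 for MX1, so even the highest of them was more than 2 log2 units lower. ISG15, a ubiquitin-like modifier, stood at 2.89, against -1.72 to 0.34, and RSAD2, which encodes viperin, at 2.72, against -0.45 to 0.50. HERC6, a ligase of the family that attaches ISG15, stood at 2.72 and did not exceed 0.09 in any other ctrl dog.

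The effector group was not uniform. HERC5 (1.61), IFIT2 (1.77) and OAS1 (1.56) were raised by smaller amounts, 3.61-, 3.99- and 3.32-fold over the mean of the other ctrl dogs. The HERC5 value averages 2 probes that disagreed, at 2.49 against a mean of -0.33 in the other ctrl dogs and at 0.73 against -0.16. MX2, OAS3, EIF2AK2 (the kinase PKR) and USP18, which removes ISG15, were between 1.97- and 2.53-fold above. IFIT1 was 1.77-fold above, and IFIT3, IFIT5, BST2 and TRIM25 were less than 1.5-fold above. IFIT1, IFIT2 and IFIT3, which lie together on chromosome 4 and encode RNA-binding proteins, thus ranged from 1.39-fold (IFIT3) to 3.99-fold (IFIT2) in the same blood sample.

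The nucleic acid sensors DDX58 and IFIH1 followed the effectors. DDX58 stood at 2.60 in ctrl dog 7 and at -1.04, -0.95, 0.14, 0.10, -0.53, -0.57 and -0.49 in the other ctrl dogs. IFIH1 stood at 1.66 and between -0.78 and 0.29 in the others. DDX60 (0.62) and DHX58 (0.84), further helicases of this pathway, were 1.37- and 1.63-fold above the mean of the others, whose highest values were 0.46 and 0.47. The 2 transcription factors measured by gene name showed no such lift, unlike IRF7, which was named by description only and is given further on. IRF1 read 0.31 in ctrl dog 7 against -0.08 to 0.53 in the others, and IRF9 read 0.18 against -0.14 to 0.28.

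Of the other induced genes, IFI44L (2.19), PARP14 (2.22), EPSTI1 (2.15), XAF1 (1.52) and IFI35 (1.50) were 2.78- to 5.75-fold above the mean of the other ctrl dogs. PARP9 and DTX3L, which form a complex, stood at 0.97 and 0.93, about the same lift of 2.04- and 2.20-fold. CXCL10, a chemokine, read 0.27 against -0.11 to 0.25, and IFI6 read 0.20 against -0.17 to 0.59. The CXCL10 value averages 3 probes that disagreed in ctrl dog 7. The 2 that overlap read 0.49 and -0.08, and the other read 0.41.

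**Figure D3:**
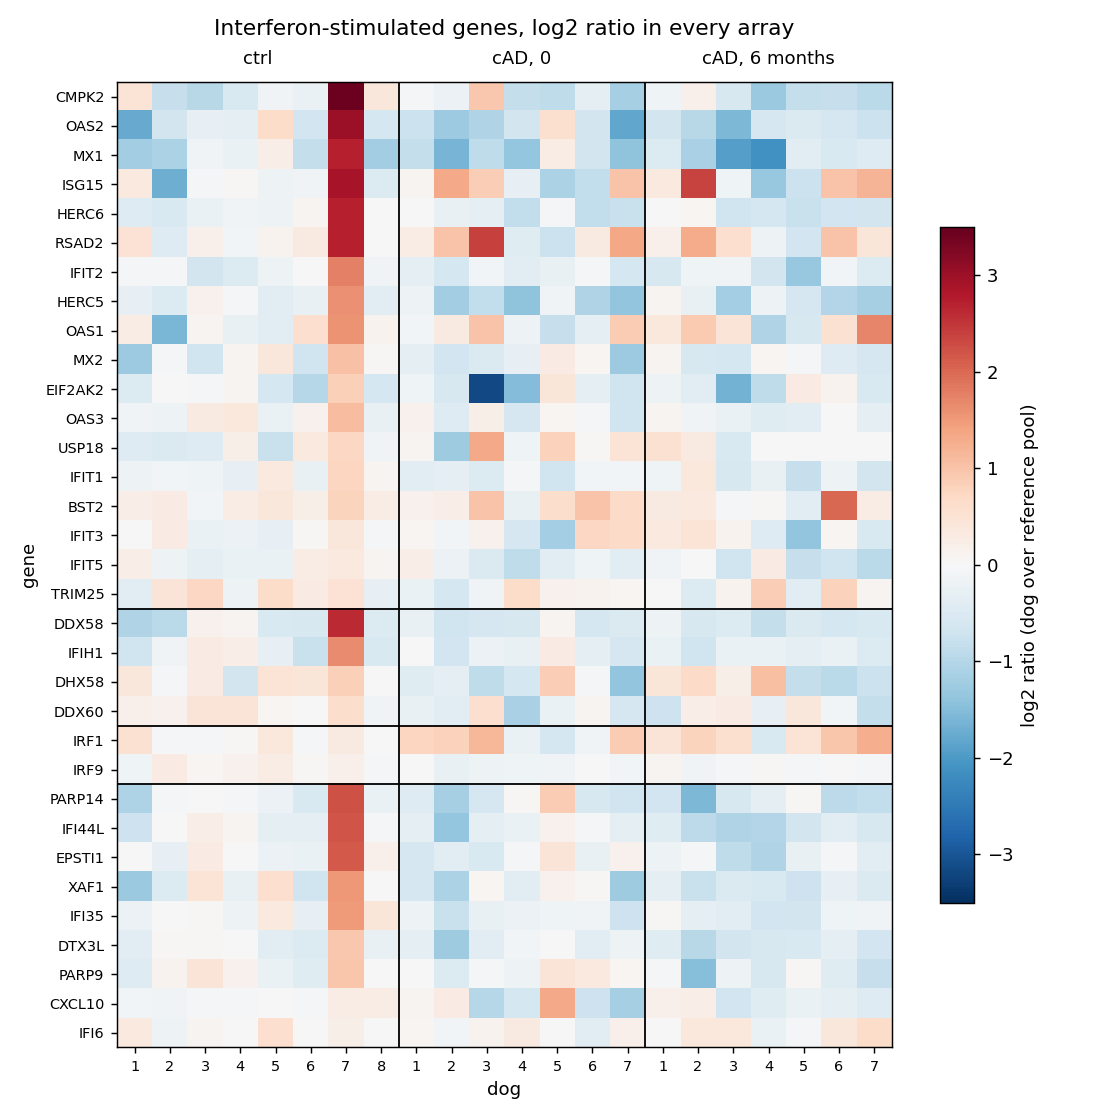
Log2 ratio of the 33 interferon-stimulated genes (rows, grouped from top to bottom as effectors, nucleic acid sensors, transcription factors and other induced genes) in the 22 arrays (columns, dog numbers within ctrl, cAD at 0 and cAD at 6 months). Red is above and blue below the reference pool. The column of ctrl dog 7 is red throughout, from 0.18 (IRF9) to 3.44 (CMPK2).

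Before ASIT (0 vs. ctrl) 27 of the 33 genes were lower in cAD patients, against 53% of all measured genes, with a median difference of -0.33 where the median of all genes was -0.02. This median was -0.11 with normexp and loess, and 0.06 with Cy5 alone and ctrl dog 7 left out. None of the 33 passed the limma test at an adjusted p of 0.05, with 0.0434% of all genes passing. At an unadjusted limma p of 0.05, 4 of the 33 passed, all lower in cAD patients, against 12.5% of all genes in either direction and 8.55% lower. The 4 were HERC5, IFI35, DDX60 and IRF9, a share of 12.1%, near that of all genes. These counts include DHX58, CXCL10, USP18 and 1 of the 2 HERC5 probes, which passed the signal filter only through ctrl. With only probes well above background in both channels on all arrays (23 members), the median was -0.35. Of these 23, 2 had an unadjusted limma p under 0.05, against 8.79% of all genes.

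These differences were smaller when ctrl dog 7 was left out. Then 23 of the 33 genes were lower, the median difference was -0.17, and 2 of the 33, both lower, had an unadjusted limma p under 0.05, against 10.7% of all genes in either direction and 7.24% lower. None passed at an adjusted p of 0.05, with 0.00668% of all genes passing.

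HERC5, a ligase that attaches ISG15, had the largest difference and the smallest limma p of the 33 in this comparison, although IRF9 had the smallest exact permutation p. It read -0.18, -1.22, -0.85, -1.40, -0.11, -1.05 and -1.39 in the 7 cAD patients before ASIT and -0.47 to 0.15 in the ctrl dogs other than dog 7. The patients mostly lay below the ctrl dogs, though 2 patients overlapped them. The difference was -0.87 ± 0.29 (SE), limma adjusted p = 0.195, and -0.64 ± 0.24 (SE), adjusted p = 0.313, without ctrl dog 7. The exact two-sided permutation test over dogs gave p = 0.0109 with and 0.0181 without ctrl dog 7. Its 2 probes did not move alike. One, well above background on all arrays, fell by 0.46. The other fell by 1.29 and passed the filter only through ctrl. It was well above background on all 8 ctrl arrays but on 2 of 7 arrays at 0 and 3 of 7 at 6 months. The limma and permutation values above average both probes. With the brightest probe alone the difference was -0.46 (limma adjusted p = 0.614), and with normexp background correction and loess it was -0.18 (adjusted p = 0.779).

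MX1, OAS2, DHX58 and EIF2AK2 had the next largest differences at 0, of -0.62 to -0.71. MX1 read -0.84, -1.62, -0.88, -1.34, 0.26, -0.63 and -1.40 in the cAD patients, 3 of them below the lowest ctrl dog (-1.23) and the others within the ctrl values. Its difference was -0.69 ± 0.46 (SE) and shrank to -0.28 ± 0.33 (SE) without ctrl dog 7. OAS2 likewise went from -0.71 ± 0.46 (SE) to -0.27 ± 0.32 (SE). EIF2AK2 read -3.15 in dog 3, and its difference of -0.62 was -0.23 without that array. DHX58 and DDX60 had weak signals in patients, well above background on 2 and 4 of the 7 arrays at 0, so their ratios there are poorly determined. DHX58 passed the filter only through ctrl. The DDX60 difference of -0.49 was -0.04 with normexp and loess. IFI35, a leucine zipper protein, was -0.55 ± 0.21 (SE) with and -0.37 ± 0.16 (SE) without ctrl dog 7, limma adjusted p = 0.256 and 0.407.

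IRF9, the DNA-binding subunit of the interferon-activated complex, had small differences and little spread. It read -0.02, -0.25, -0.19, -0.15, -0.11, -0.02 and -0.10 in cAD patients before ASIT, all below 0, and -0.14 to 0.28 in ctrl. The difference was -0.22 ± 0.10 (SE), limma adjusted p = 0.377, with an exact permutation p of 0.00528, and hardly changed without ctrl dog 7 (-0.21 ± 0.11, SE). Its 2 probes, which share 17 bases, disagreed: one differed by -0.44 and the other by 0.00.

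After 6 months of ASIT (6 months vs. ctrl) the counts were similar to those before ASIT. Both comparisons use the same ctrl dogs and are not independent. Again 27 of the 33 genes were lower in cAD patients, against 55.2% of all genes, with a median difference of -0.34 and a median over all genes of -0.03. It was -0.11 with normexp and loess, and -0.05 with Cy5 alone and ctrl dog 7 left out. None passed at an adjusted p of 0.05 and 0% of all genes did. At an unadjusted limma p of 0.05, 6 of the 33 passed, all lower, against 7.16% of all genes in either direction and 2.89% lower. They were IFI44L, DTX3L, PARP9, IFI35, EPSTI1 and IFIT5. The counts again include the members that passed the signal filter only through ctrl.

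With ctrl dog 7 left out the median difference was -0.22, 25 of the 33 genes were lower, and 3 passed at an unadjusted p of 0.05, all lower, against 6.3% of all genes in either direction and 2.47% lower. With an adjusted p of 0.05 none of the 33 and 0% of all genes passed. The 3 were IFI44L, DTX3L and IFI35, a share of 9.09%.

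IFI44L, an interferon-induced protein of uncertain function, read -0.42, -0.92, -1.06, -1.02, -0.65, -0.39 and -0.57 in the cAD patients at 6 months. Its ctrl values other than 2.19 in dog 7 ran from -0.72 to 0.22. Its difference was -0.85 ± 0.30 (SE), limma adjusted p = 0.638, with an exact permutation p of 0.00606. Without ctrl dog 7 it was -0.55 ± 0.20 (SE), adjusted p = 0.748, exact permutation p = 0.00816. All 3 of its probes fell, by 0.64, 0.85 and 1.05.

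DTX3L, a ubiquitin ligase, read -0.43, -0.98, -0.65, -0.57, -0.53, -0.33 and -0.66 at 6 months and -0.47 to 0.05 in ctrl dogs other than dog 7. Its difference was -0.53 ± 0.20 (SE), limma adjusted p = 0.651, and -0.39 ± 0.17 (SE), adjusted p = 0.748, without ctrl dog 7. The exact permutation p was 0.00389 and 0.00408. CMPK2, MX1, PARP14 and OAS2 had differences of -0.84, -0.78, -0.70 and -0.71, which became -0.38, -0.36, -0.39 and -0.27 without ctrl dog 7. With normexp and loess several of these differences at 6 months were smaller: -0.39 for IFI44L, -0.16 for PARP9, -0.30 for EPSTI1 and 0.00 for IFIT5, with -0.35 for DTX3L.

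**Figure D4:**
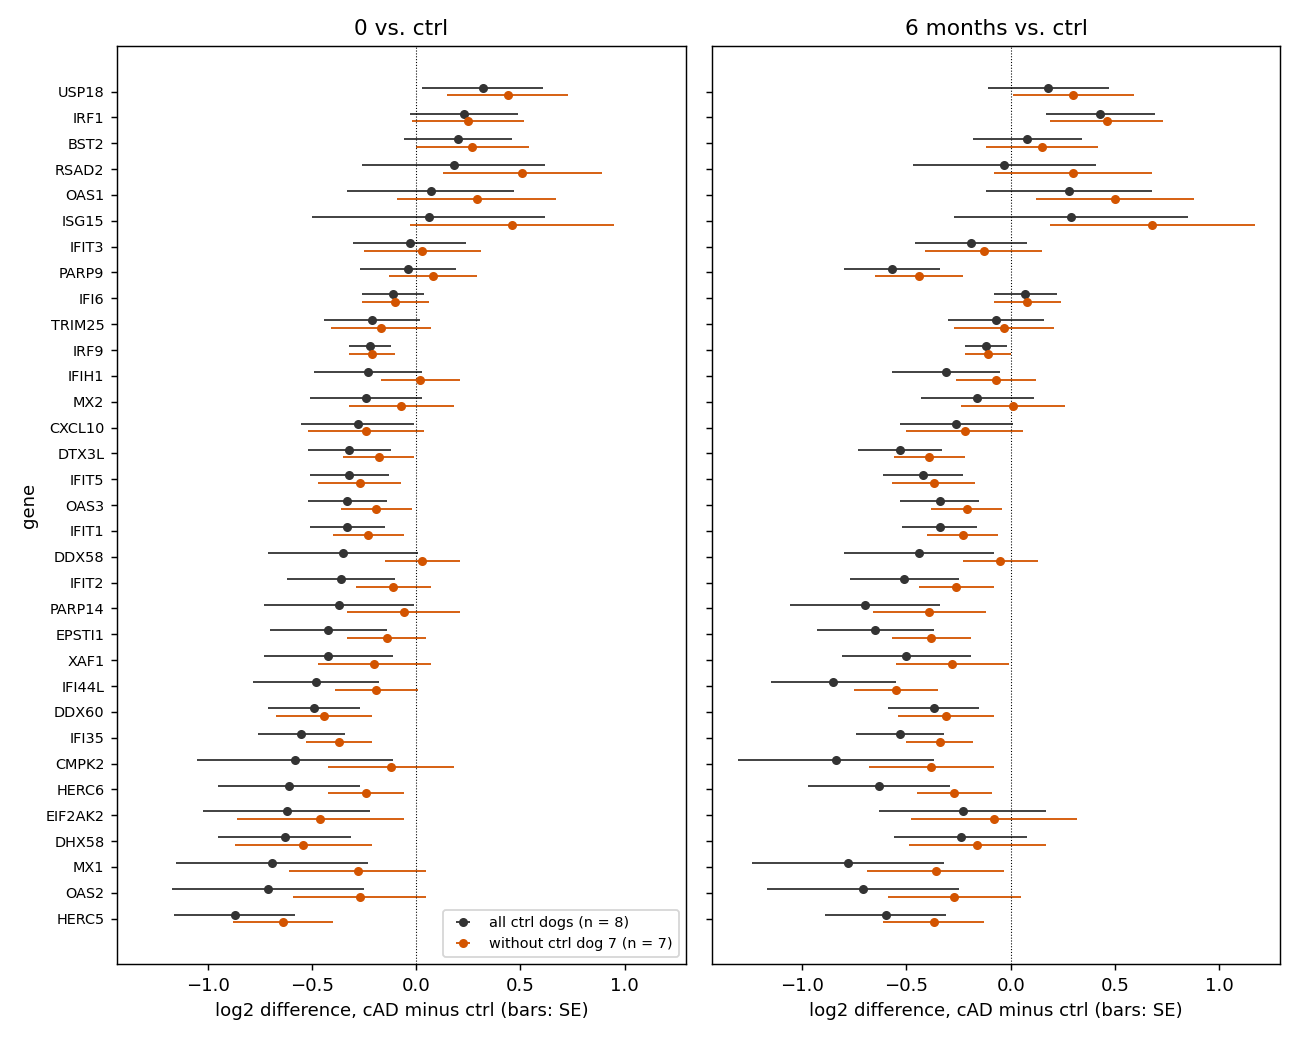
Log2 difference of cAD patients from ctrl (x axis) for each of the 33 interferon-stimulated genes (y axis), before ASIT on the left and after 6 months on the right. Black points use all 8 ctrl dogs, orange points leave out ctrl dog 7, and bars are standard errors of the limma fit. Most orange points lie to the right of the black ones, with medians of -0.17 against -0.33 on the left and -0.22 against -0.34 on the right.

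A few members went the other way. ISG15 was 0.06 ± 0.56 (SE) higher at 0 and 0.29 ± 0.56 (SE) higher at 6 months, and 0.46 ± 0.49 (SE) and 0.68 ± 0.49 (SE) without ctrl dog 7. In cAD patients it read 0.09, 1.33, 0.86, -0.29, -1.12, -0.86 and 1.01 before and 0.35, 2.36, -0.16, -1.33, -0.76, 0.99 and 1.18 after ASIT. These values lay within the ctrl range of -1.72 to 2.89, in which the highest ctrl dog other than dog 7 was at 0.34. OAS1 differed by 0.07 at 0 and 0.28 at 6 months, and IRF1 by 0.23 and 0.43. None of these passed at an adjusted or unadjusted limma p of 0.05. With Cy5 alone IRF1 was 0.85 ± 0.28 (SE) higher at 6 months, limma adjusted p = 0.0399. In that fit 2 of the 33 passed, against 5039 of all 29937 genes. With Cy5 alone and ctrl dog 7 left out, OAS1 was 1.01 ± 0.32 (SE) higher at 0 and 1.06 ± 0.32 (SE) higher at 6 months. The limma adjusted p was 0.0401 and 0.047. In that fit 1 of the 33 passed at 0 and 1 at 6 months, against 4816 and 2726 of all genes.

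IFIT1, which binds viral RNA ends, averaged 0.02 ± 0.36 (SD, n = 8) in ctrl, -0.31 ± 0.24 (SD, n = 7) at 0 and -0.32 ± 0.40 (SD, n = 7) at 6 months. DDX58 averaged -0.09 ± 1.17, -0.45 ± 0.28 and -0.53 ± 0.20 (SD) in the same order. The group means were 0.02 ± 0.15, -0.26 ± 0.88 and -0.24 ± 0.33 (SD) for CXCL10 and -0.13 ± 0.51, 0.19 ± 0.81 and 0.04 ± 0.33 (SD) for USP18. CXCL10 and USP18 were well above background on 1 or 2 of the 7 arrays of each cAD group, and 4 of the 7 USP18 ratios at 6 months were exactly 0, so their ratios there are poorly determined.

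Across the 3 groups together (limma F test) none of the 33 passed at an adjusted p of 0.05, with 0.00334% of all genes passing. Unadjusted, 5 of the 33 passed, against 10.4% of all genes, and the smallest adjusted p was 0.36, for HERC5.

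Between 0 and 6 months, in the same dogs, the 33 genes moved little as a group. The median difference (0 vs. 6 months, 0 minus 6 months) was 0.03 where the median of all genes was -0.02, with 19 genes higher before ASIT and 14 lower. None passed at an adjusted p of 0.05 and 0% of all genes did, while 1 of the 33 passed unadjusted against 6.52% of all genes. Unless a dog block is named, the limma values and standard errors for 0 vs. 6 months ignore the pairing of samples. Dog by dog, the median change over the 33 genes was -0.08, -0.34, 0.24, -0.03, 0.49, -0.03 and -0.12 for dogs 1 to 7. Dog 5 had 26 of the 33 genes higher before ASIT and dog 3 had 25, whereas dog 2 had 28 lower, so the dogs did not share a direction.

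PARP9, an inactive ADP-ribosyltransferase that pairs with DTX3L, was the member that passed unadjusted. It read 0.00, -0.47, -0.03, -0.17, 0.46, 0.33 and 0.07 before and -0.08, -1.48, -0.17, -0.57, 0.04, -0.42 and -0.80 after ASIT in dogs 1 to 7. It was higher before ASIT in 7 of 7 dogs, by 0.52 ± 0.23 (SE), limma adjusted p = 0.699. The exact paired sign-flip test gave p = 0.0156, the smallest that 7 dogs allow, before adjustment over the 33 genes. In the 3 dogs with both arrays on 1 slide the difference was 0.41 (limma adjusted p = 0.896), and with the slide as a fixed block it was 0.35 (adjusted p = 1). With normexp and loess it was 0.20 (adjusted p = 1). Leaving out dog 2 at 6 months, the lowest value, brought it to 0.36.

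PARP14, on the same stretch of chromosome 33, was higher before ASIT in 6 of 7 dogs, by 0.33 ± 0.37 (SE), limma adjusted p = 0.916, exact paired p = 0.0312. Without dog 5 at 0 the difference was 0.12. With the dog as a block in the limma fit, PARP9 (adjusted p = 0.658) and PARP14 (0.33 ± 0.14 SE, adjusted p = 0.736) were the 2 members with an unadjusted p under 0.05, against 6.78% of all genes in that fit. IRF9 was lower before ASIT in 7 of 7 dogs, by 0.10 on average, exact paired p = 0.0156, limma adjusted p = 0.915. In dogs 4 to 7 the 2 arrays also differed in slide and scan day. Both its probes were lower before ASIT, with differences of -0.14 and -0.06. IFI44L was higher before ASIT in 6 of 7 dogs, by 0.36 ± 0.31 (SE). MX1 was higher before ASIT in 3 of 7 dogs and ISG15 in 2 of 7.

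**Figure D5:**
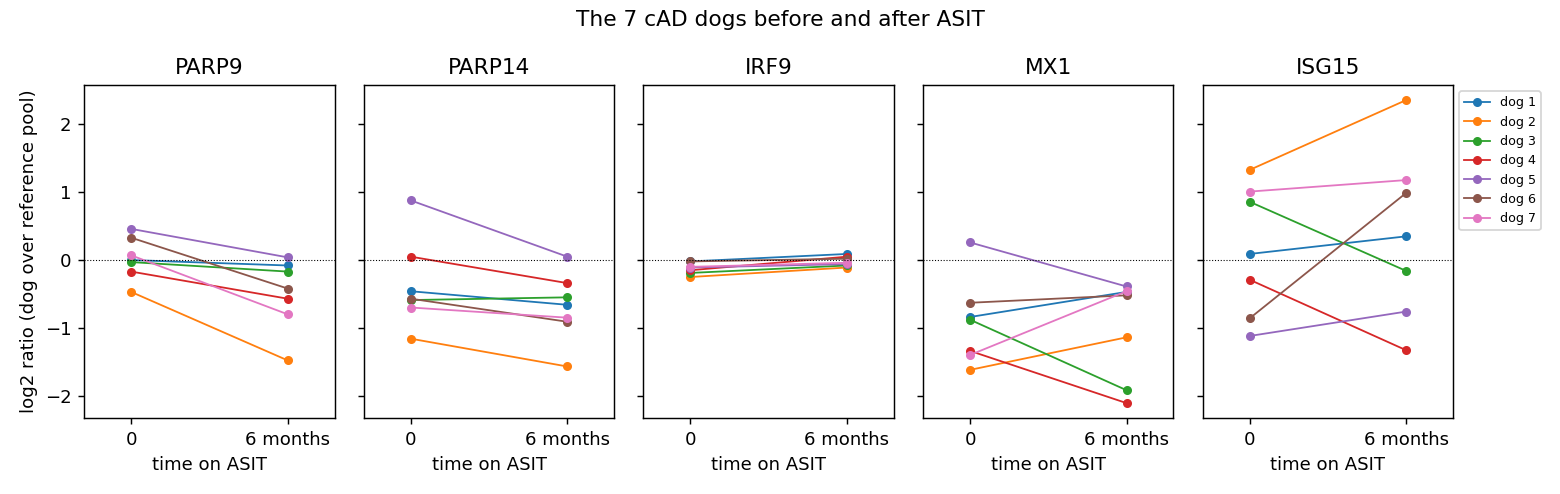
Log2 ratio (y axis, dog over reference pool) of PARP9, PARP14, IRF9, MX1 and ISG15 in the 7 cAD patients at 0 and at 6 months, with a line for each dog. PARP9 falls and IRF9 rises slightly in every dog, PARP14 falls in 6 of 7, and the lines of MX1 and ISG15 cross.

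The correlation between members across dogs was high where ctrl dog 7 was included and low without it. In the 8 ctrl dogs the median correlation over the 528 pairs of members was 0.62, where the median over all pairs of measured genes was 0.00. It was 0.04 over the 7 ctrl dogs other than dog 7. In cAD patients it was 0.19 at 0 and 0.11 at 6 months. Over all 22 arrays with group means removed it was 0.32, and 0.12 over the 21 arrays without ctrl dog 7. The share of member pairs with r above 0.5 over those 21 arrays was 12.9%, against 8.27% of all gene pairs. These correlations are descriptions over few arrays that share slides and a reference, and the 2 samples of a cAD patient are not independent.

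Ranked by correlation with the mean of the other members over 22 arrays, DDX58 (r = 0.92), HERC6 (0.91), IFI44L (0.87), MX1 (0.86) and IFI35 (0.85) led, and IRF1 (0.06), IFI6 (0.09) and TRIM25 (0.12) came last. Without ctrl dog 7 the same 5 genes had r of 0.56, 0.56, 0.53, 0.65 and 0.58, and OAS3 was highest at 0.71. ISG15, RSAD2 and OAS1 dropped to 0.05, 0.04 and 0.04. Their r differed in sign between the cAD groups, at -0.62, -0.26 and -0.40 before ASIT and 0.65, 0.59 and 0.39 at 6 months, over 7 arrays each.

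These 3 genes correlated with each other in every group. ISG15 and OAS1 correlated at 0.84 in the 7 other ctrl dogs, 0.87 in cAD patients before and 0.83 after ASIT. ISG15 and RSAD2 correlated at 0.85, 0.78 and 0.84, and OAS1 and RSAD2 at 0.86, 0.93 and 0.66. In all, 21 of the 528 member pairs (3.98%) had r above 0.5 in each of these sets of 7 arrays, against 2.61% of all gene pairs. All pairs among PARP9, PARP14, DTX3L and IFIH1 were also in the 21, with PARP9 and DTX3L at 0.91, 0.72 and 0.78. MX1, MX2, OAS2 and DDX58 were linked in a chain, with MX1 and OAS2 at 0.82, 0.86 and 0.55. These groupings were read from the values and carry no test.

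Several of these members are neighbours in the genome. The probes of PARP9, DTX3L and PARP14 lie on chromosome 33 within 154 kb, those of CMPK2 and RSAD2 on chromosome 17 within 31 kb, and those of OAS1, OAS3 and OAS2 on chromosome 26. There were 12 pairs of members within 200 kb of each other. Their median correlation was 0.38 in ctrl without dog 7, 0.62 at 0 and 0.56 at 6 months, against 0.03, 0.18 and 0.10 for the 516 other pairs. Of the 12, 4 kept r above 0.5 in all 3 sets, the 3 pairs of the chromosome 33 genes and CMPK2 with RSAD2. OAS1 and OAS2 lie 52.2 kb apart and had r of -0.25, -0.86 and -0.29, while in ctrl dog 7 both were high.

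Of the 9 members with no probe of their name, 7 are named by the description of a probe filed under a transcript identifier. IRF7, the factor that amplifies interferon production, stood at 3.08 in ctrl dog 7 and between -1.26 and -0.17 in the other ctrl dogs. Its range was -1.54 to 0.22 in cAD patients at 0 and -1.98 to -0.31 at 6 months. IFI44 stood at 2.06, ZBP1, a sensor of Z-form nucleic acid, at 1.64, SAMD9L at 1.61 and RTP4 at 1.59, each the highest of the 22 arrays. ADAR, an RNA editing enzyme, ranked 2 of 22 at 0.56, and SP110 ranked 16 at -0.34. These values stand outside the 33-gene counts.

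The 20 further genes most correlated with the members over 22 arrays were in part of the same kind. Among these 20, 5 are probes described as IFI44, IRF7, SAMD9L or ZBP1, and 3 are on the lists of interferon genes, PARP12 (r = 0.80), UBE2L6 (0.76), which charges ISG15, and STAT2 (0.71). A further 2 are probes filed under other names but described as the members EPSTI1 and CMPK2. The rest include unannotated transcripts, CFTR and PLCXD3. Without ctrl dog 7 only 1 of the 20 stayed in the top 20, and none of the 20 that then led was on a list.

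The wider interferon pathway showed the same dog. On a list of further interferon-induced genes, 47 of 75 were measured, and ctrl dog 7 was the highest of 22 arrays in 21 of the 47. Their mean stood at 0.43 in ctrl dog 7 and between -0.12 and 0.00 in the other ctrl dogs. LGALS9 (1.39), TDRD7 (1.03), UBE2L6 (1.02), TRIM21 (0.83) and RNF213 (0.77) were examples. None of the 47 passed at an adjusted p of 0.05 in any comparison. At an unadjusted p of 0.05, 4 of the 47 passed at 0, all lower than ctrl, against 8.55% of all genes lower. At 6 months 9 of the 47 passed, all lower, against 2.89% of all genes lower. Leaving out ctrl dog 7, 2 were lower at 0 (7.24% of all genes), and at 6 months 4 were lower (2.47% of all genes) and 1 was higher. Between 0 and 6 months 1 passed, IFI16, higher before ASIT, against 6.52% of all genes in either direction. PSMB8, an immunoproteasome subunit, had the smallest limma p at 6 months, with a difference of -0.56 ± 0.17 (SE), adjusted p = 0.574.

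The interferons, their receptors and their signalling genes did not show it to that degree. Of 27 listed, 16 were measured, and their mean in ctrl dog 7 was 0.19, inside the range of the other ctrl dogs (-0.08 to 0.20). STAT2 was the 1 gene of the 16 that was highest of all 22 arrays in ctrl dog 7, at 1.13 against -0.41 to 0.60 in the other ctrl dogs. SOCS3 (0.39 against -0.17 to 0.12) and IFNLR1 (0.25 against -0.37 to 0.19) were above the other ctrl dogs too. STAT2 differed by -0.49 ± 0.20 (SE) at 0, limma adjusted p = 0.273. The sensors and adaptors upstream of interferon, 11 of 17 measured, had a mean of 0.03 in ctrl dog 7, also inside the range of -0.16 to 0.06.

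Markers of blood cells were present as the tissue label says: all measured T cell (10), platelet (6), erythroid (7) and eosinophil (3) markers were well above background on all 22 arrays. The full lists were so on 21 arrays for plasmacytoid dendritic cells, 17 for monocytes, 14 for B cells, 8 for neutrophils and 7 for cytotoxic and NK cells. In ctrl dog 7 the mean of the 13 neutrophil markers was 0.54, above the -0.25 to 0.32 of the other ctrl dogs and below the highest cAD patient at 0 (0.89). The 3 eosinophil markers averaged 0.80 against -0.40 to 0.36, with ALOX15 at 2.65 (up to 1.61 in the other ctrl dogs), IL5RA at -0.11 and CCR3 at -0.12. The 10 T cell markers averaged -0.37, just below the -0.33 to 0.37 of the others, and the 10 cytotoxic and NK cell markers averaged -0.35, inside the -0.43 to 0.90 of the others. No gene of any list passed at an adjusted p of 0.05 in any comparison. The means over the markers of monocytes (12), B cells (8), platelets and erythroid cells lay inside the range of the other ctrl dogs, as did the mean over 4 markers of plasmacytoid dendritic cells, known as makers of type I interferon. Single markers of these lists did lie outside it, among them TCF4 (0.29 against -0.22 to 0.17) and TLR4 (0.61 against -0.23 to 0.20). The part of these cell types in the values of ctrl dog 7 was not tested.

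Some cell markers also differed between cAD patients and ctrl at an unadjusted limma p of 0.05. Before ASIT the 6 platelet markers had a median difference of -0.56, with PPBP at -0.66 ± 0.31 (SE) and ITGB3 at -0.63 ± 0.26 (SE), limma adjusted p = 0.394 and 0.295. These 2 of the 6 passed, where 8.55% of all genes passed and were lower. TCF4, a transcription factor of plasmacytoid dendritic cells, differed by -0.45 ± 0.15 (SE) at 0 and -0.43 ± 0.15 (SE) at 6 months, limma adjusted p = 0.195 and 0.630. It alone passed of the 4 measured markers of these cells, whose median differences were -0.21 and -0.07. PACSIN1, of the same list, differed by 0.12 and -0.01, NRP1 by -0.19 and 0.05 and RUNX2 by -0.23 and -0.12. At 6 months 3 of the 10 cytotoxic and NK cell markers passed unadjusted, all lower, among them EOMES at -0.71 ± 0.24 (SE), adjusted p = 0.613, where 2.89% of all genes were lower. Markers higher at 6 months were ALAS2 (0.94), MMP9 (1.15) and IL5RA (0.52), limma adjusted p = 0.666, 0.682 and 0.682. They were 1 of 7 erythroid, 1 of 13 neutrophil and 1 of 3 eosinophil markers, where 7.16% of all genes passed in either direction. The medians of these lists were 0.54, 0.05 and 0.16, and MMP8 (-0.95) and CCR3 (-0.45) were lower than ctrl. The part of these cell types in the values of the 33 genes was not tested.

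The cAD arrays were the weaker arrays. The Cy5 signal was well above background at 53.3% to 87.5% of probes at 0 and 57.2% to 81.6% at 6 months, against 83.7% to 92.3% in ctrl. Of the 46 member probes, 45 or 46 were well above background on each ctrl array and 34 to 46 on each cAD array. The part of this gap in the differences from ctrl was not tested.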

How the data were processed

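Blood RNA of 8 ctrl dogs and of 7 cAD patients, sampled before ASIT and after 6 months, was hybridised by the authors on 22 two-colour Agilent Canine (V2) 4x44K arrays, 1 per sample, with Cy5 for the dog and Cy3 for a pool of 13 healthy dogs. The deposited scanner files hold log10 ratios of Cy5 over Cy3, background-subtracted and lowess-normalized by Feature Extraction. The submitters' processing notes give version 10.7.3.1 and the file headers 10.10.1.1, with build canFam3.1. The deposited files also hold the intensity of each channel, used for channel checks. The authors' value table matched the scanner values of cAD arrays (r = 1) but less so of ctrl arrays (r = 0.711 to 0.844), and its centring there stays unknown.

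Log10 ratios were converted to log2. Control spots and outlier spots were left out, spots averaged per probe, and probes averaged per gene name where 7 or more arrays had a Cy5 signal above background. Groups were taken from the labels. limma 3.58.1 (R 4.3.3) was fitted to 29937 genes over the 3 groups, with Benjamini-Hochberg adjustment. The test was checked on simulated data. The dog numbers in the labels pair the 2 samples of a cAD patient; same-dog correlations of deviations from the group means ran from -0.04 to 0.56, and in 3 of 7 dogs (3, 5 and 6) another dog's array correlated more highly than the dog's own. Each dog is 1 sample, so the number of arrays limits the precision.

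Members and lists were chosen with earlier results of these data known. Named genes were a fixed set of 8 members (MX1, ISG15, IFIT1, OAS1, IRF7, CXCL10, DDX58, USP18), per comparison the 5 with the largest difference and the 5 with the smallest p, and those most and least correlated with the rest. Other members were named after their values were seen. Promoter motifs were not analysed here. Alternatives were another background correction, the authors' value table, processed signals, Cy5 alone, other filters, the brightest probe, slide, scan day or dog as a block, the methods' one-way test and each array left out; those chosen after seeing the data are named as such.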

Additional observations from a re-analysis of the deposited data

Results flagged for a closer look

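Within each group, every gene was checked for an array whose gap to its nearest neighbour took an unusually large part of the group's range. Of 99 gene and group combinations 17 stood out, under a cut-off nominally set to mark 1 in 20. Its rate over all measured genes was not computed. The 33 genes share arrays, so the 17 are not independent. Of the 17, 14 were high values of ctrl dog 7: CMPK2 (3.44), ISG15 (2.89), RSAD2 (2.72), HERC6 (2.72), MX1 (2.71), DDX58 (2.60), PARP14 (2.22), IFI44L (2.19), EPSTI1 (2.15), IFIT2 (1.77), IFIH1 (1.66), HERC5 (1.61), IFI35 (1.50) and DTX3L (0.93), all log2 ratios over the pool. The mean over the 33 genes in this dog (1.43) stood out too, with a gap to the next ctrl dog that took 0.837 of the range. OAS2, at 2.99 in the same dog, did not. The other ctrl dogs ranged there from -1.77 to 0.65.

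In cAD patients, dog 2 before ASIT was low for IFI44L (-1.36, next -0.33) and DTX3L (-1.25, next -0.41). Dog 6 at 6 months was high for BST2, which encodes tetherin (2.01, next 0.34).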

How the results depend on the processing

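The lift of ctrl dog 7 over the mean of the other ctrl dogs, 1.56, was seen under all 7 alternatives added after seeing the data: 1.11 with normexp and loess, 1.94 with Cy5 alone, 1.94 with the strict filter (23 members) and 1.56 to 1.64 with the rest. No member was called at an adjusted p of 0.05 in any comparison, except with Cy5 alone at 6 months vs. ctrl (2, IFIT5 at -0.57 and IRF1 at 0.85, with 5039 of all genes) and, added after seeing the data, Cy5 alone without ctrl dog 7 (1 at 0 and 1 at 6 months, OAS1 both times, with 4816 and 2726 of all genes). The number with an unadjusted p under 0.05 at 0 vs. ctrl, 4, was 2 with normexp and loess, Cy5 alone, the strict filter or a random slide block and 0 with a random scan day block. Over all genes the share, 12.5%, was 7.93%, 37.8%, 8.79%, 8.29% and 3.42% in these fits, in the same order. At 6 months vs. ctrl, 6 became 3 with normexp and loess, 2 with a random slide block, 0 with a random scan day block and 2 by the methods' one-way test. Over all genes 7.16% became 4.23%, 3.02%, 1.22% and 2.86%, in the same order. At 0 vs. 6 months, 1 became 0 with normexp and loess, with a slide or scan day block (random, or slide fixed) and by the methods' test. Over all genes 6.52% became 3.15% with normexp and loess and 4.55% and 3.85% with a random slide or scan day block. It became 2.15% with the slide fixed and 2.91% by the methods' test. With the dog as a replicate block the number of members was 2, against 6.78% of all genes, and that block changed no other call. Leaving out single arrays gave 2 to 6 at 0 vs. ctrl. It gave 2 without ctrl dog 3 or 7, or without cAD dog 4 or 7 at 0, and 6 without ctrl dog 1. Over all genes the share there was 11.6%, 10.7% and 12.7% without ctrl dog 3, 7 and 1. At 6 months vs. ctrl it gave 3 to 9, with 3 without ctrl dog 7 (6.3% of all genes) and 9 without ctrl dog 1 (8.97%). At 0 vs. 6 months it gave 0 to 1. There it gave 0 without cAD dog 5, 6 or 7 at 0, or 2, 4 or 7 at 6 months. With single arrays left out, median differences in the 3 comparisons ranged from -0.38 to -0.17, -0.40 to -0.22 and -0.02 to 0.10. Under normexp and loess both medians against ctrl were -0.11. With Cy5 alone without ctrl dog 7 the median at 0 vs. ctrl changed sign, from -0.33 to 0.06, and at 6 months vs. ctrl it went from -0.34 to -0.05. With Cy5 alone DDX60 reversed at 0 vs. ctrl (0.47, and 0.64 without ctrl dog 7), and PARP9 at 6 months vs. ctrl (0.15) without ctrl dog 7. Without ctrl dog 7 the median pair correlation was 0.12 and none of the 20 most similar genes was on a list. The causes were not tested.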
